A study of Mus musculus with 6 samples.

Results

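Alternative splicing in heart muscle is steered by a set of RNA-binding proteins, and the messenger RNAs of 51 such factors were followed here in HL-1 cells, a mouse line of atrial cardiomyocyte origin, with and without a β3-adrenergic agonist. The members were chosen by symbol from the 32739 genes counted: the SR proteins, Tra2 proteins, CLK kinases and heterogeneous nuclear ribonucleoproteins (hnRNPs), which act in most cells, and the Muscleblind, CELF and RBFOX families with Rbm20 and Rbm24, called muscle regulators below. Pseudogenes that matched the symbols were left out. The vehicle group (agent given as control) and the BRL group (agent BRL37344, 5 µM in the culture medium) each had 3 libraries. Cells of both groups were grown in Claycomb Medium and kept in hypoxia for 6 h, then reoxygenated for 1 h, per the series design, and the sources used here do not say when BRL was added relative to these steps. No library of cells without hypoxia was analysed here, so the comparison is BRL against vehicle after hypoxia and reoxygenation, and HL-1 is a single immortalised line. Whether the 3 libraries of each group stem from different cultures is not stated, and if they do not, the p-values reflect technical spread alone.

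SR proteins carry arginine-serine repeats, bind exonic enhancers and mostly promote exon inclusion, and CLK kinases phosphorylate those repeats and release SR proteins from nuclear speckles. Many hnRNPs coat nascent RNA and repress splice sites. RBM20 represses exons of titin and other sarcomere and calcium-handling transcripts, and its mutation causes dilated cardiomyopathy, while RBM24 promotes inclusion of muscle exons. Muscleblind proteins drive the switch from fetal to adult splicing and are sequestered in myotonic dystrophy, CELF proteins often act against them, and RBFOX proteins bind near muscle and neuronal exons. The deposited values are per gene, so they hold the amount of each factor's RNA and no exon usage.

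Total expected counts lay between 4440168 and 8332472 per library, and depth did not overlap between the groups, with BRL deeper. A floor of 3 counts corresponded to between 0.360 and 0.676 CPM on these unadjusted totals, whereas the CPM values below are scaled to TMM-adjusted totals. BRL replicate 1 stood apart: mitochondrially encoded transcripts took 5.03% of its counts, against 16.5% to 21.9% in the other 5 libraries. All 9 cardiomyocyte markers examined (Myh6, Actc1, Tnnt2, Tnni3, Nppa, Myl7, Ryr2, Pln and Des) had at least 10 counts in every library. Their summed level was 7264 to 8047 CPM in vehicle and 4113 to 5614 CPM in BRL. Myh6, the atrial and adult ventricular myosin, made up most of that difference (3328 CPM on average in vehicle and 1326 CPM in BRL). In 5 of the 9 markers the groups overlapped, in 3 every BRL library was lower, and in 1, Tnni3, every BRL library was higher. Over all tested genes 15.5% were lower and 16.0% higher in this sense. The log2 fold change was negative for 8 of the 9, with a median of −0.15. By edgeR 2 of the 9 fell and none rose, where 1.79% of all tested genes fell and 1.01% rose. These 2 were Myh6 (log2 fold change −1.33, edgeR adjusted p = 0.0117) and Pln (−1.52, adjusted p = 0.00183). The 5 smooth muscle markers summed to 3054 to 3447 CPM in vehicle and 1266 to 2637 CPM in BRL, where Myh11, the defining myosin, had at most 2 counts in a library. Fibroblast, endothelial and leukocyte markers, 5 of each, summed to no more than 6.31 CPM in any library, with Dcn, Csf1r and Ptprc at 0 throughout. Whether these shifts had a part in the differences below was not tested.

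The RNA of general factors was far more abundant than that of muscle regulators. On the TPM scale of RSEM, which divides by transcript length and so allows genes to be compared, the 20 hnRNPs made up 62.3% of the summed member level in vehicle and the 11 SR proteins 24.8%. Hnrnpa1, a core hnRNP that represses exons, was the highest at 1280.3 ± 130.4 TPM (SD, n = 3), although its expected counts were not whole numbers, which means that part of its reads was shared with other loci. Hnrnpa2b1 followed at 528 ± 18.0 TPM, and Srsf3 was the highest SR protein at 383 ± 15.7 TPM.

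Among muscle regulators Mbnl2 was the highest at 110.1 ± 6.12 TPM in vehicle, followed by Rbm24 at 88.5 ± 3.94 TPM and Rbm20 at 69.6 ± 6.85 TPM. Celf1, Mbnl1, Celf2 and Rbfox2 lay between 20.4 and 55.7 TPM, and Mbnl3, Celf5 and Rbfox1 between 1.32 and 8.63 TPM. Rbfox1 and Celf5 therefore rest on few reads. The other 5 members, Celf3, Celf4, Celf6, Rbfox3 and Srsf12, had at most 3 counts in any library and did not pass the filter on low counts. The remaining 46 members were tested.

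**Figure D1:**
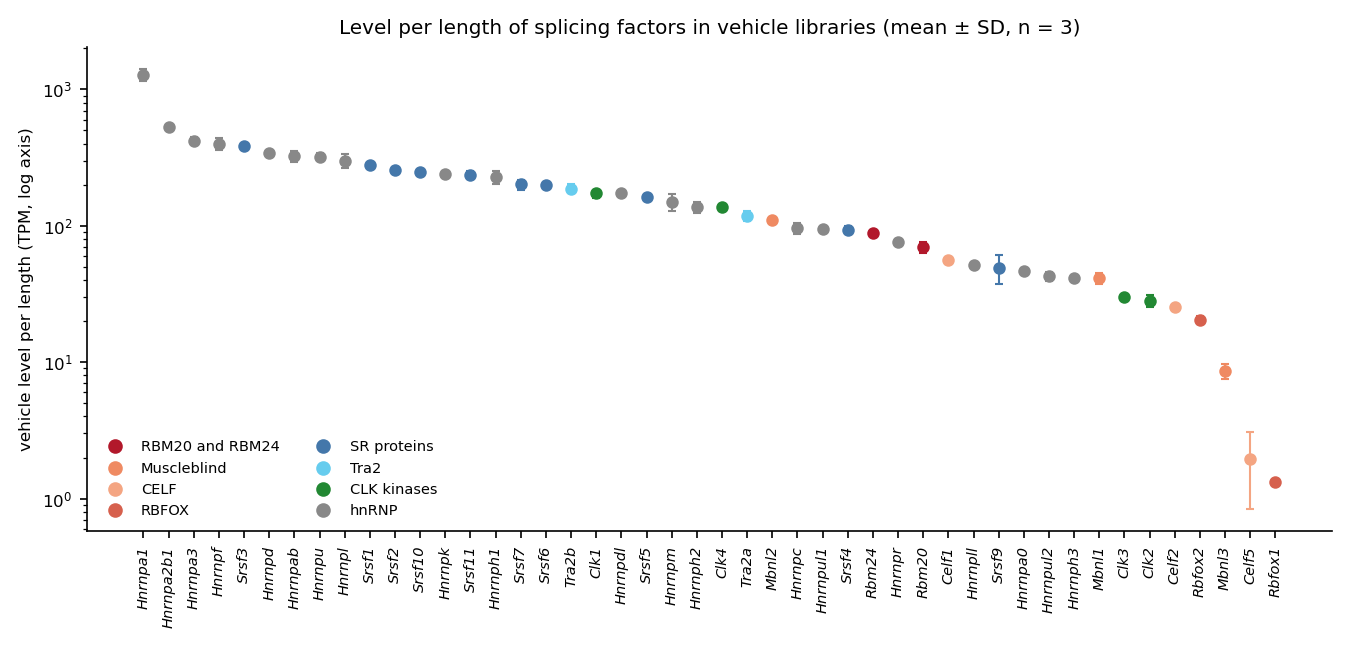
Level per length of the 46 tested members in the 3 vehicle libraries, as mean ± SD of TPM on a log axis, ordered from high to low and coloured by family. The hnRNPs and SR proteins fill the upper end, led by Hnrnpa1 at 1280.3 TPM, and Rbfox1 is lowest at 1.32 TPM.

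Rbm20 and Rbm24, the muscle splicing regulators most tied to titin and to sarcomere exons, were the members that fell with BRL. Rbm20 measured 234, 225 and 235 CPM in vehicle replicates 1, 2 and 3 and 150.1, 150.1 and 179 CPM in BRL replicates 1, 2 and 3. Every BRL library lay below every vehicle library, with BRL replicate 3 the nearest to vehicle. The log2 fold change of Rbm20 was −0.53 ± 0.10 (SE, edgeR quasi-likelihood test with Benjamini-Hochberg adjustment over 12047 genes, adjusted p = 0.0371). Rbm24 measured 178, 179 and 193 CPM in vehicle and 122, 121 and 130.3 CPM in BRL. The groups did not overlap here either, and the 3 BRL libraries were close together. Its log2 fold change was −0.56 ± 0.09 (edgeR adjusted p = 0.0194). In bulk RNA, fewer cells that express a gene and less RNA per cell cannot be told apart. The expected counts of both genes were whole, and no exon of either overlaps another gene in GENCODE M21.

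Both differences kept their sign and size under each of 19 other ways of processing, between −0.62 and −0.49 for Rbm20 and between −0.60 and −0.49 for Rbm24, but the call did not hold in all. Each gene passed in 11 of the 19. Without vehicle replicates 1, 2 and 3 in turn the edgeR adjusted p was 0.164, 0.167 and 0.217 for Rbm20 and 0.105, 0.121 and 0.166 for Rbm24. Without BRL replicate 2 it was 0.114 and 0.0703, and without BRL replicate 3 it was 0.0442 and 0.0570, for Rbm20 and Rbm24. Without BRL replicate 1, the library that stood apart, both adjusted p-values were smaller (0.000918 at a log2 fold change of −0.49 for Rbm20, and 0.000205 at −0.54 for Rbm24). With library totals alone and no further scaling, adjusted p was 0.0896 and 0.0716, and in limma fits on TPM it was between 0.324 and 0.339 for both genes.

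The upstream sequence of Rbm24 is shown because this gene had the smallest p among the members. These are the 250 bases before its start in RefSeq, on GRCm38.p6, chr13:46418050-46418299, plus strand, a build other than that of the counts. Capitals mark matches to CANNTG, the E-box bound by basic helix-loop-helix factors, on either strand.
Rbm24: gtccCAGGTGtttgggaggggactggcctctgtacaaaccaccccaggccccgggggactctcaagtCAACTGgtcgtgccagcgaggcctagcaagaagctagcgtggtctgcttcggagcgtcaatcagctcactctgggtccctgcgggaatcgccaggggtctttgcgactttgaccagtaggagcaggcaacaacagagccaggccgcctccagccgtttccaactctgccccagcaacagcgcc
The window holds 2 E-boxes, a motif found in 66.2% of 32851 promoter windows of this length. It holds no full cyclic AMP response element (TGACGTCA, in 1.55% of windows), no MEF2 site (in 2.92%) and no CArG box (in 1.47%), all searched on both strands, and 1 match to the short core of the first of these (TGACG, in 17.8% of windows). These windows include genes not tested here. Counted per gene over the 9122 tested genes with an entry, TGACG was found for 31.7% and TGACGTCA for 3.08%. Such matches describe letters and show no binding. Entries of the RefSeq table matched 45 of the 51 members, without Rbm20.

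**Figure D2:**
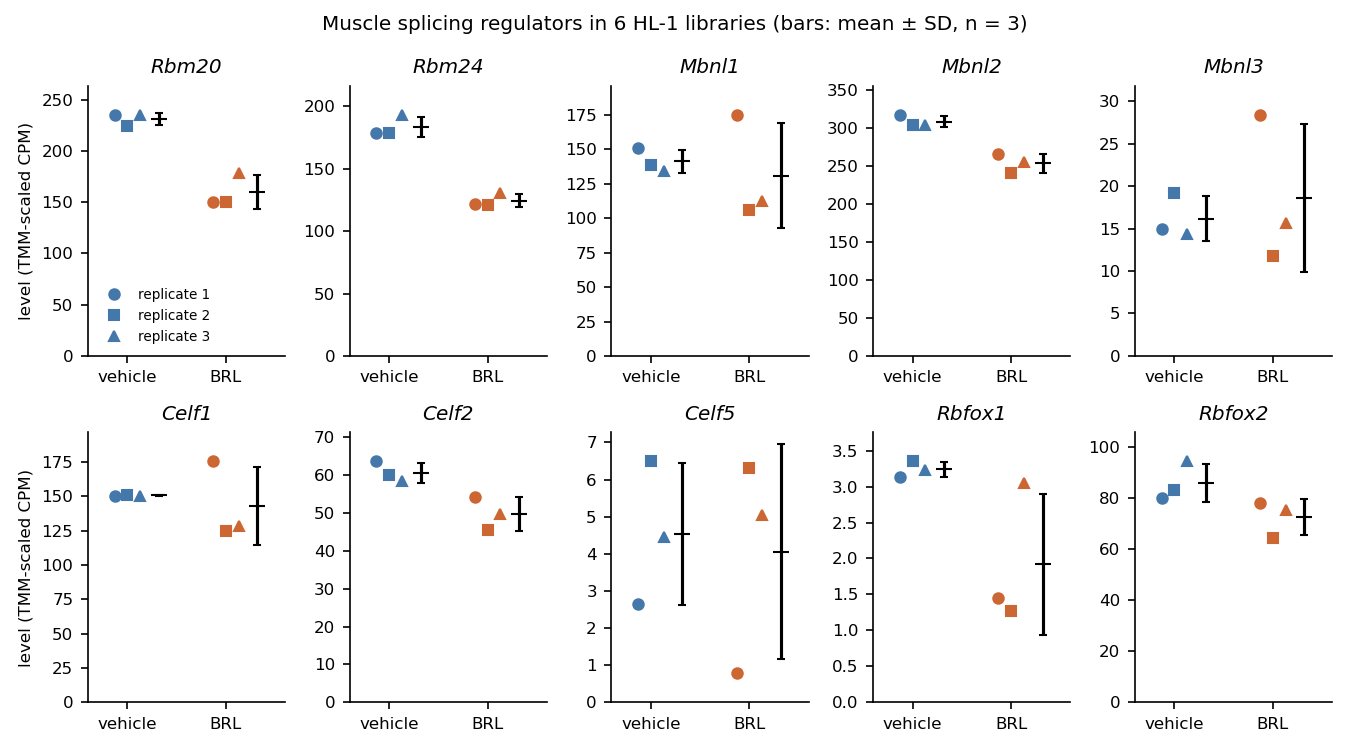
Level of the 10 tested muscle regulators in TMM-scaled CPM (vertical axis from 0) in vehicle and BRL libraries, with 1 point per library, the shape giving the replicate, and bars for mean ± SD (n = 3). Rbm20 and Rbm24 are lower in all 3 BRL libraries, and Mbnl1, Mbnl3 and Celf1 have BRL replicate 1 above all other libraries.

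No Muscleblind gene passed the test with all 6 libraries. Mbnl2, the family's most abundant member here, measured 318, 305 and 304 CPM in vehicle and 266, 241 and 256 CPM in BRL. All BRL libraries were below all vehicle libraries, but its log2 fold change of −0.28 ± 0.09 missed the threshold (edgeR adjusted p = 0.126). Its counts were not whole and its exons overlap those of an antisense gene. Mbnl1 had 151, 139 and 135 CPM in vehicle and 175, 106 and 112 CPM in BRL. The groups overlapped because BRL replicate 1 was the highest of the 6 libraries while BRL replicates 2 and 3 were the lowest. The log2 fold change of Mbnl1 was −0.11 ± 0.18 (edgeR adjusted p = 0.766), and without BRL replicate 1 it was −0.37 (adjusted p = 0.00415). In that fit Mbnl2 also passed (−0.31, edgeR adjusted p = 0.00487). Mbnl3, which is low in adult muscle, ranged from 14.3 to 19.2 CPM in vehicle and measured 28.4, 11.8 and 15.6 CPM in BRL, a spread wider than the difference between the groups.

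The CELF genes gave a similar picture. Celf1, the broadly expressed member, was nearly constant in vehicle at 151, 151 and 150.3 CPM, and had 175, 124 and 128 CPM in BRL. BRL replicate 1 was again above and BRL replicates 2 and 3 below all vehicle libraries. Its log2 fold change was −0.08 ± 0.14 (edgeR adjusted p = 0.783), and −0.25 without BRL replicate 1 (adjusted p = 0.0187). Celf2, a regulator of heart and brain exons, measured 63.5, 59.8 and 58.4 CPM in vehicle and 54.1, 45.4 and 49.6 CPM in BRL. These groups did not overlap, yet the difference of −0.29 ± 0.10 (log2) did not pass (edgeR adjusted p = 0.165), and without BRL replicate 1 it did (−0.34, adjusted p = 0.0135). Celf5 ranged from 2.65 to 6.49 CPM in vehicle and from 0.792 to 6.32 CPM in BRL, with counts that were not whole, and its log2 fold change of −0.18 ± 0.61 is too imprecise to set a direction.

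Rbfox2, the RBFOX gene of the heart that is found in many tissues, had 79.9, 83.1 and 94.2 CPM in vehicle and 78.0, 64.5 and 75.1 CPM in BRL. The groups came within 2 CPM of each other without overlap, and the log2 fold change was −0.24 ± 0.11 (edgeR adjusted p = 0.254). Without BRL replicate 1 the difference was −0.29 and passed (adjusted p = 0.0447). Rbfox1, the striated muscle and neuronal member, was near 3 CPM in vehicle (3.13, 3.35 and 3.24) and had 1.45, 1.26 and 3.05 CPM in BRL. BRL replicate 3 sat just under vehicle while the other two BRL libraries were lower, and the log2 fold change of −0.73 ± 0.39 did not pass (edgeR adjusted p = 0.310).

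Over the 10 tested muscle regulators, 2 fell and none rose by edgeR, where 1.79% of all tested genes fell and 1.01% rose. In 6 of the 10, every BRL library was below every vehicle library, and in none was it above, while 15.5% of all tested genes were below and 16.0% above in this sense, and 31.6% either. The median log2 fold change was −0.26 over these 10 and 0.01 over all genes tested. Of the 10 values 9 were negative, against 5942 of all 12047 tested genes. The signs of Mbnl1, Mbnl3, Celf1 and Celf5 were not the same under all other ways of processing. Without BRL replicate 1, 7 of the 10 fell, and in that fit 10.9% of all tested genes fell and 10.3% rose. With all 6 libraries, the other 36 tested members had 6 genes below and 4 above, a median of 0.02, and no call by edgeR. DESeq2 and the exact test each called 1 of these 36, and edgeR without BRL replicate 1 called 3, all lower. Over all 12047 tested genes DESeq2 called 592, of which 350 were lower, and the exact test 1026, of which 566 were lower.

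**Figure D3:**
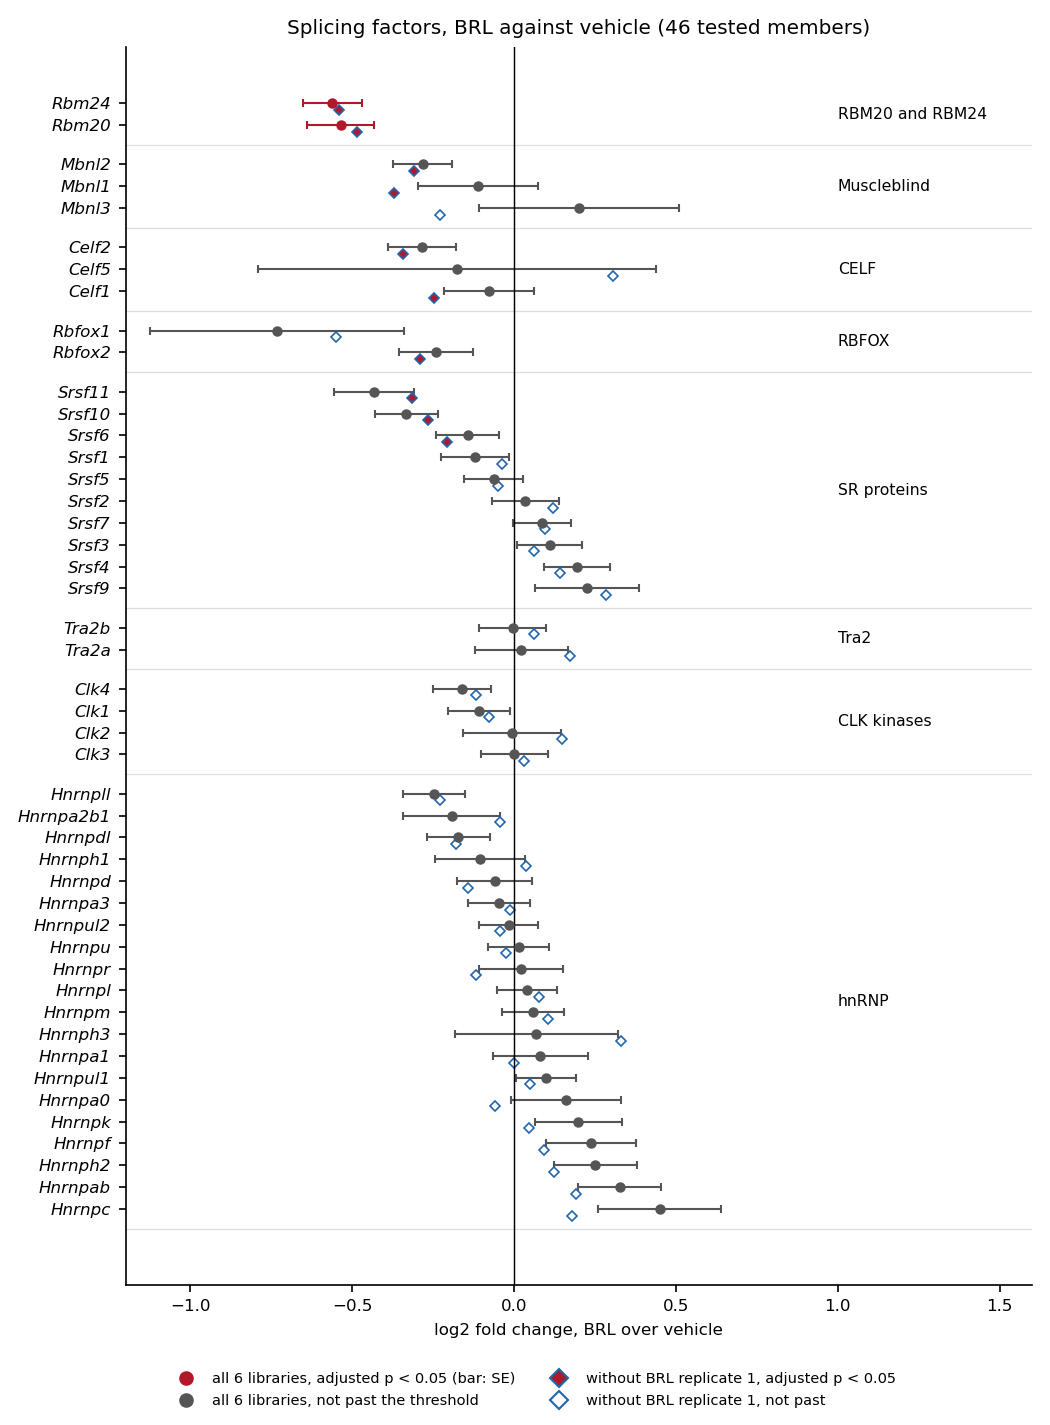
Log2 fold change of BRL over vehicle for the 46 tested members (horizontal axis), grouped by family, with circles and SE bars for the fit to all 6 libraries and diamonds for the fit without BRL replicate 1. Filled red marks adjusted p under 0.05: 2 circles, Rbm24 and Rbm20, and 10 diamonds, all at negative values. Of all tested genes, 1.79% fell in the fit to 6 libraries and 10.9% in that without BRL replicate 1.

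Among the 10 tested SR proteins, none passed edgeR's test with all libraries. At an unadjusted p under 0.05, which 22.4% of all tested genes reached, there were 2, Srsf10 and Srsf11. One of them, Srsf11, was called by DESeq2 and by the exact test of edgeR, and neither by limma-voom. Srsf11, an arginine-serine protein of nuclear speckles, measured 319, 345 and 307 CPM in vehicle and 200.3, 255 and 264 CPM in BRL. It was lower in all BRL libraries, most so in BRL replicate 1, with a log2 fold change of −0.43 ± 0.12 (edgeR adjusted p = 0.0986). DESeq2 and the exact test gave adjusted p = 0.0460 and 0.0421 for it. Srsf10, an SR protein that represses splicing once dephosphorylated, had 354, 353 and 344 CPM in vehicle and 254, 293 and 287 CPM in BRL. Here too the groups were apart, at −0.33 ± 0.10 (log2, edgeR adjusted p = 0.101).

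Srsf6 lay within 331 to 335 CPM in vehicle and had 329, 293 and 283 CPM in BRL, with BRL replicate 1 only just below vehicle (log2 fold change −0.14 ± 0.10, edgeR adjusted p = 0.422). When BRL replicate 1 was left out, Srsf11 (−0.31, edgeR adjusted p = 0.00652), Srsf10 (−0.27, adjusted p = 0.00912) and Srsf6 (−0.21, adjusted p = 0.0315) fell. Srsf4, a large SR protein with a long arginine-serine tail, leaned the other way, from 113, 101 and 109.7 CPM in vehicle to 133, 124 and 114 CPM in BRL. Its groups did not overlap by a margin of under 1 CPM, and its difference of 0.19 ± 0.10 (log2) did not pass (edgeR adjusted p = 0.297). The most abundant SR genes, Srsf3 and Srsf1, had overlapping groups. Srsf3, the smallest SR protein, went from 416 ± 23.9 to 449 ± 30.6 CPM, and Srsf1, the prototype of the family, from 389 ± 10.4 to 358 ± 35.3 CPM (SD, n = 3). The 4 SR genes not described, Srsf2, Srsf5, Srsf7 and Srsf9, had log2 fold changes between −0.06 and 0.23.

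The Tra2 genes, relatives of SR proteins that favour exons rich in GAA repeats, did not pass. Tra2a had 149, 133 and 139.9 CPM in vehicle and 112, 164 and 151 CPM in BRL, so that BRL held both the lowest and the highest libraries. Tra2b was likewise lowest in BRL replicate 1 (241 CPM) and highest in BRL replicate 2 (288 CPM), around a vehicle range of 253 to 278 CPM. The log2 fold changes were 0.02 ± 0.14 for Tra2a and −0.00 ± 0.10 for Tra2b (edgeR adjusted p of 0.950 and 0.988).

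Of the 4 CLK kinases none passed by edgeR, where 2.81% of all tested genes did. None had an unadjusted p under 0.05, which 22.4% of all tested genes reached. None was called by the exact test, limma-voom or DESeq2, which called 1026, 279 and 592 of all 12047 tested genes. With only 4 genes, these counts do not set the family apart from all genes. Clk4 was the one whose groups did not overlap, as was so for 31.6% of all tested genes. It had 123, 127 and 123 CPM in vehicle and 105, 117 and 111 CPM in BRL. Its log2 fold change was −0.16 ± 0.09 (edgeR adjusted p = 0.333). Clk1, the most abundant kinase of the group per length (173 ± 11.7 TPM in vehicle), had 201, 232 and 216 CPM in vehicle and 194, 199 and 209.6 CPM in BRL. The lowest vehicle library lay inside the BRL range. Clk2 and Clk3 had log2 fold changes of −0.01 ± 0.15 and 0.00 ± 0.10.

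None of the 20 hnRNP genes passed by edgeR, and limma-voom, DESeq2 and the exact test called 0. Over all 12047 tested genes these 3 tools called 279, 592 and 1026. At an unadjusted p under 0.05 there were 3 of the 20, a smaller share than the 22.4% of all tested genes. Hnrnpc, which binds uridine tracts and masks cryptic exons, measured 129, 114 and 119.9 CPM in vehicle and 223, 136 and 137 CPM in BRL. BRL replicate 1 carried most of the difference, which was 0.45 ± 0.19 (log2, edgeR adjusted p = 0.211) and 0.18 without that library (adjusted p = 0.0954). Hnrnpab went from 395, 369 and 362 to 558, 427 and 427 CPM. Its groups were apart, again with BRL replicate 1 the highest (0.33 ± 0.13, edgeR adjusted p = 0.184), and without that library the difference was 0.19 (adjusted p = 0.0528). Hnrnpll, a regulator known from lymphocyte CD45 splicing, had 93.1, 91.5 and 96.5 CPM in vehicle and 77.5, 74.0 and 85.0 CPM in BRL. It was lower in all 3 BRL libraries, at −0.25 ± 0.10 (edgeR adjusted p = 0.180), and close to that without BRL replicate 1 (−0.23, adjusted p = 0.0653).

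Hnrnph2, a binder of G-rich runs, had 235, 209 and 229 CPM in vehicle and 315, 233 and 253 CPM in BRL, with BRL replicate 2 inside the vehicle range. The 2 most abundant hnRNPs did not separate the groups. Hnrnpa1 measured 646, 793 and 834 CPM in vehicle and 896, 834 and 675 CPM in BRL, and Hnrnpa2b1 822, 920.1 and 922 against 612, 873 and 845 CPM. For both, the spread between libraries of a group was as wide as the difference between groups, with log2 fold changes of 0.08 ± 0.15 and −0.19 ± 0.15 (edgeR adjusted p of 0.783 and 0.481). Over the family, log2 fold changes ran from −0.25 to 0.45 with a median of 0.05. In 3 genes (15%) every BRL library was above vehicle and in 2 (10%) every BRL library was below, near or under the 16.0% and 15.5% of all tested genes.

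Among all 46 tested members, 2 fell and 0 rose by edgeR, against 2.81% of all genes called in either direction. The call of 0 rising members was shared by limma-voom, DESeq2 and the exact test. Over all 12047 tested genes these tools called 95, 242 and 460 as rising. In 12 members (26.1%) every BRL library was below vehicle and in 4 (8.70%) above, against 15.5% and 16.0% of all tested genes. At an unadjusted p under 0.05, 7 members were lower and 2 higher, and the 9 together are a smaller share than the 22.4% of all tested genes. Counts were not whole for 25 of the 46 and exons overlapped another gene for 19, so values of these members are less certain.

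The BRL libraries did not vary together. BRL replicate 1 was the highest or lowest of the 6 libraries for 65.2% of the members, against 62.3% of all tested genes. In the hnRNP family it was the highest library for 11 of 20 genes (55%) and the lowest for 4 (20%). Over all tested genes it was the highest for 30.2% and the lowest for 32.1%. Relative to the vehicle mean, on the scale of log2(CPM + 0.5), Hnrnpc was at 0.88 in BRL replicate 1 and at 0.17 and 0.18 in BRL replicates 2 and 3. Hnrnph3 stood at −0.65 in BRL replicate 1 and at 0.49 and 0.15 in the other two, so the sign changed between libraries of the same group. BRL replicate 2 was the lowest library for all 3 Muscleblind genes, both RBFOX genes, 2 of the 3 CELF genes, and Rbm20 and Rbm24. It was the lowest for 32.6% of the members and 19.1% of all tested genes. For Rbm20 and Rbm24, BRL replicates 1 and 2 gave nearly the same value.

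**Figure D4:**
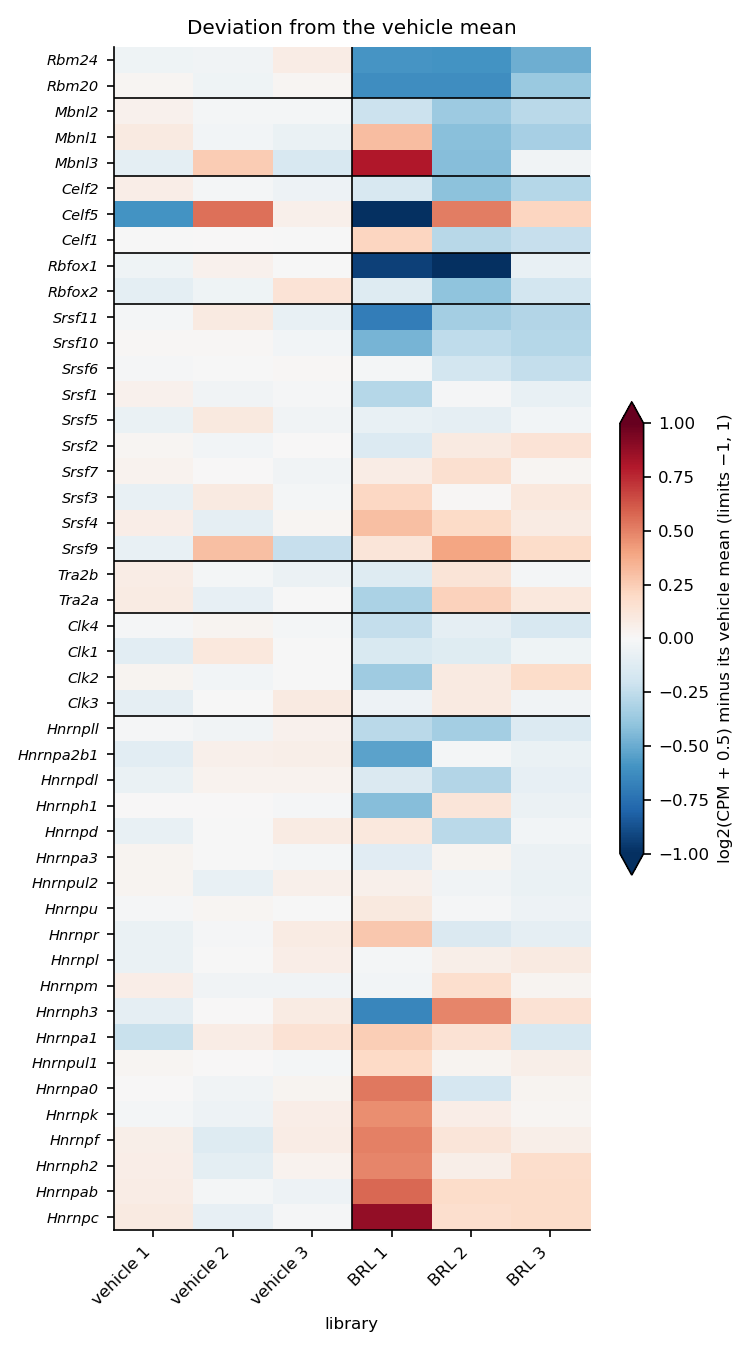
Deviation of each tested member (rows, by family) from its vehicle mean in each of the 6 libraries (columns), in log2(CPM + 0.5), blue for lower and red for higher, with colours limited at −1 and 1. Rbm24 and Rbm20 are blue in all 3 BRL columns, while Mbnl1, Mbnl3, Celf1 and several hnRNPs are red in BRL replicate 1 only or most strongly there.

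The proteins that these factors act with were read from further lists. Of 47 core spliceosome genes, all tested, 1 rose and none fell by edgeR, against 1.01% and 1.79% of all genes. The gene that rose was Sf3b5, a small subunit of the complex that recognises the branch point, with 19.5, 15.9 and 17.4 CPM in vehicle and 30.9, 32.6 and 27.2 CPM in BRL. These groups were well apart, at a log2 fold change of 0.78 ± 0.13 (edgeR adjusted p = 0.0231, past the threshold in 13 of 19 alternatives). In 23 of the 47 genes (48.9%) every BRL library was above vehicle and in none was it below, against 16.0% and 15.5% of all genes. The list's median log2 fold change was 0.30. Its median deviation from the vehicle mean was 0.47, 0.19 and 0.12 for BRL replicates 1, 2 and 3, so the library that stood apart was the highest. At an unadjusted p under 0.05 there were 16 higher genes and 0 lower, where 22.4% of all genes reached that p in either direction. The exact test called 7, DESeq2 3 and limma-voom 1, all higher, and over all genes these tools called 1026, 592 and 279. Without BRL replicate 1, 14 rose and 1 fell, where 10.3% of all genes rose and 10.9% fell.

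Those 23 included U1 and Sm proteins such as Snrpc (28.3 ± 0.762 to 39.4 ± 3.29 CPM), Snrpb (60.5 ± 6.28 to 86.6 ± 11.9 CPM) and Snrnp70 (119 ± 0.268 to 149.8 ± 21.3 CPM). They also included U2af1 and U2af2, the pair that binds the 3′ splice site. None of these 5 passed by edgeR (adjusted p between 0.0589 and 0.149). Of the 6 exon junction genes, 3 had no overlap and were higher in BRL, against 16.0% of all genes, and none passed by edgeR. At an unadjusted p under 0.05 there were 4, against 22.4% of all genes, with 3 called by the exact test, 2 by DESeq2 and 0 by limma-voom. Magoh, a core subunit of that complex, had the smallest p (0.52 ± 0.12, edgeR adjusted p = 0.0567).

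Among 7 genes for SR kinases and SR protein transport, 1 fell, Srpk2, and none rose by edgeR. Over all tested genes 1.79% fell and 1.01% rose. Of the 7 values 5 were positive, with a median log2 fold change of 0.11. In 2 of the 7 every BRL library was above vehicle and in 2 below, against 16.0% and 15.5% of all tested genes. Srpk2, a cytoplasmic SR protein kinase, went from 89.96, 99.4 and 96.5 CPM to 63.3, 64.5 and 74.2 CPM, all BRL libraries below vehicle (log2 fold change −0.50 ± 0.10, edgeR adjusted p = 0.0452). It passed in 9 of 19 alternatives, its counts were not whole and its exons overlap those of a gene on the opposite strand. Of 39 tested genes for other splicing regulators, none passed by edgeR, limma-voom, DESeq2 or the exact test, while 3 higher and 5 lower genes had an unadjusted p under 0.05, a share below the 22.4% of all genes. Without BRL replicate 1, 3 of these rose and 10 fell by edgeR, where 10.3% of all genes rose and 10.9% fell. Luc7l2, a U1-associated factor, had the smallest p (−0.35 ± 0.09, edgeR adjusted p = 0.0881).

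Transcripts known to be spliced in a regulated way in striated muscle, many of them by RBM20, Muscleblind or RBFOX proteins, included most of the falls in these lists. Of 20 tested, 6 fell and none rose by edgeR, against 1.79% and 1.01% of all genes, and in 11 (55%) every BRL library was below vehicle, against 15.5%. At an unadjusted p under 0.05, reached by 22.4% of all genes, there were 11 lower genes and 0 higher, with 6 called by limma-voom, 8 by the exact test and 8 by DESeq2, all lower, beside the counts over all genes given above for these tools. Without BRL replicate 1, 12 fell and none rose by edgeR, where 10.9% of all genes fell and 10.3% rose. The median log2 fold change was −0.35, and the median deviation from the vehicle mean was −0.17, −0.52 and −0.29 in BRL replicates 1, 2 and 3. The list shares Ryr2 and Tnnt2 with the cardiomyocyte markers above, whose summed level was also lower, and both of these genes had overlapping groups.

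Sorbs2, an adaptor of the Z-disc, went from 111, 119 and 118 CPM in vehicle to 46.6, 36.6 and 47.8 CPM in BRL (log2 fold change −1.41 ± 0.12, edgeR adjusted p = 0.00189). It had the largest fall of the list, although its counts were not whole and an antisense gene overlaps it. Nexn, which encodes the actin-binding protein nexilin, went from 404, 423 and 433 to 134, 176 and 224 CPM (−1.24 ± 0.17, adjusted p = 0.00980). BRL replicate 1 was the lowest library for Nexn, whose exons overlap those of another gene on the same strand. Camk2d, a calcium-dependent kinase whose isoform choice depends on RBM20, had 134, 138 and 149 CPM in vehicle and 109, 85.0 and 89.2 CPM in BRL (−0.57 ± 0.12, adjusted p = 0.0439).

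Trdn, the junctional protein triadin, fell by 0.91 ± 0.16 (log2, edgeR adjusted p = 0.0261), and Ldb3, a Z-disc protein, by 1.34 ± 0.10 (adjusted p = 0.00145). Ldb3 and Sorbs2 passed in all 19 alternatives, and Nexn, Trdn and Camk2d in 16, 11 and 10. Titin itself did not pass: Ttn had 268, 346 and 304 CPM in vehicle and 261, 133 and 166 CPM in BRL. It was lower in every BRL library, with BRL replicate 1 close to vehicle (log2 fold change −0.71 ± 0.23, edgeR adjusted p = 0.123).

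**Figure D5:**
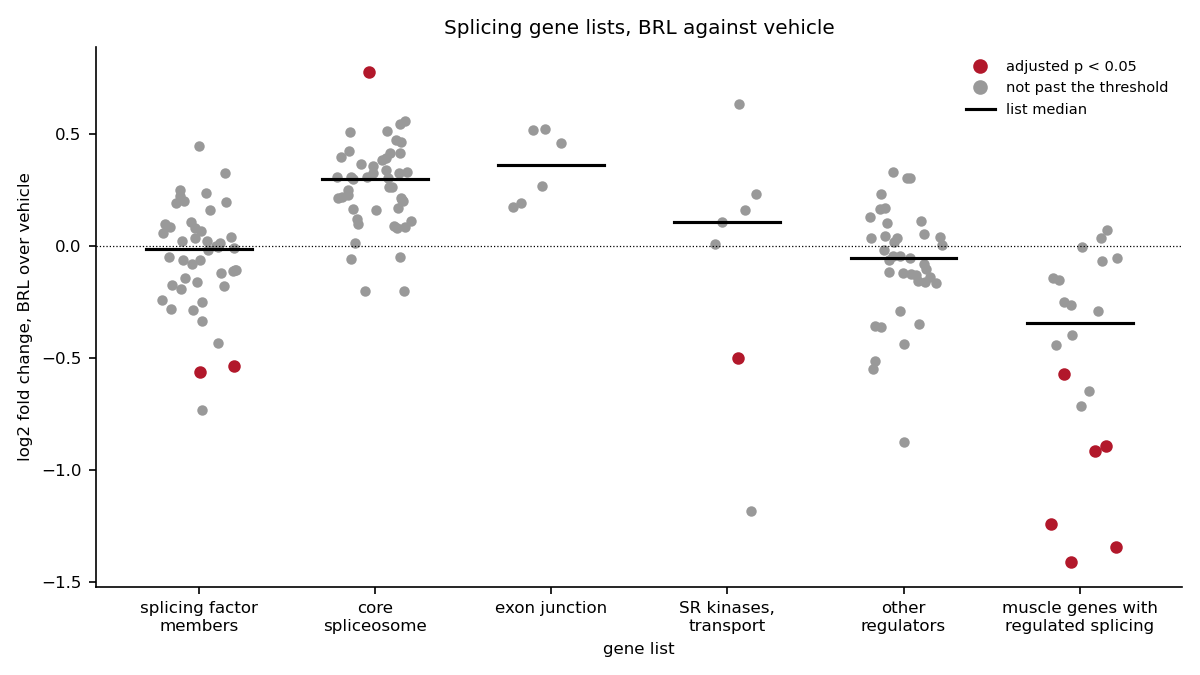
Log2 fold change of BRL over vehicle (vertical axis) for each tested gene of 6 lists, with list medians as black bars and genes at adjusted p under 0.05 in red; horizontal scatter within a list carries no value. The core spliceosome median is 0.30, that of muscle genes with regulated splicing is −0.35, and the splicing factor members centre on −0.01.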

How the data were processed

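RNA of 6 HL-1 libraries was made into sequencing libraries with an Illumina TruSeq kit, per the labels' protocols. The deposited files hold RSEM expected counts per Ensembl gene and an RSEM fraction of transcripts per gene, totalling 1 over the genes of a library. Tools named in the submitters' processing notes are cutadapt, Bowtie, RSEM 1.17 and edgeR, with build NCBIM37. Settings and strand: not given in the sources used here. TPM is the deposited fraction rescaled to the usual total. Expected counts that fit several loci are split, so 13.2% to 15.6% of values per library were not whole within 0.005. The deposited series table of log2 values was not used.

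Symbols came from the supplied name table (88.4% of genes, 96.9% of tested genes). Exon overlap came from GENCODE M21, another build, with no coordinates taken. Rounded counts were fitted by edgeR 4.0.16 under R 4.3.3 (filterByExpr, minimum count 10, TMM, quasi-likelihood F-test on group, Benjamini-Hochberg over 12047 genes, threshold 0.05); dividing the size of a log2 fold change by the root of F gave its SE. CPM is TMM-scaled. Alternatives used DESeq2 1.42.0, limma 3.58.1, edgeR's exact test, other scaling, filters, thinning, a replicate block and each library left out. On simulated counts for this comparison (11920 genes), 17 of 50 genes changed 1.5-fold and 34 of 50 changed 2-fold were recovered, and 18 of 167 calls were false.

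The members and lists were chosen with earlier results of these data known. Named were members past the threshold, tested members of the small families, and in Srsf and Hnrnp the 4 of smallest p and 2 of highest level; in the other lists, genes past the threshold and that of smallest p. The values of 1 gene that this rule names are not reported here. Named outside this rule, after their values were seen, were Myh6, Pln, Tnni3, Hnrnph3, Snrpc, Snrpb, Snrnp70, U2af1, U2af2 and Ttn. Libraries of a group differed by more than sampling noise (chi-square per degree of freedom 1.69 to 89.1).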

Additional observations from a re-analysis of the deposited data

How the results depend on the processing

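The 338 calls over all genes became 612 with no filter on low counts, 220 with library totals alone, 592 with DESeq2, 1026 with the exact test, and 60 and 57 with limma on log2(TPM + 1) and log2(TPM + 0.1). The 2 calls among splicing factors became 0 with library totals alone, and 0 and 0 in the limma fits on TPM. The 8 calls in the other splicing lists became 15 with no filter, 5 with library totals alone, 14 with DESeq2, 20 with the exact test, and 3 and 3 in the limma fits on TPM. Leaving out 1 library in turn gave 32 to 2555 calls over all genes, 0 to 10 among splicing factors and 2 to 46 in the other lists, the highest each time without BRL replicate 1. Such fits have 3 against 2 libraries, and the cause of the changes was not tested.

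The sources used here do not say whether replicate numbers pair the samples. Deviations of same-numbered libraries from their group means correlated at 0.10, −0.01 and −0.01. Those of differently numbered libraries correlated between −0.12 and 0.14. Such values cannot settle the pairing, as each group has 3 libraries and BRL replicate 1 stood apart. With the replicate block 213 genes and 1 splicing factor, Rbm24, were called (edgeR adjusted p = 0.0470, and 0.0610 for Rbm20), and 6 in the other lists. Over 19 alternatives the adjusted p of Rbm20 ranged from 0.000918 to 0.333 and that of Rbm24 from 0.000189 to 0.339. With 17 of 50 simulated 1.5-fold changes recovered, changes of that size or smaller could be missed at this depth and number of libraries. The 18 false calls among 167 were a larger share than the 0.05 that the threshold sets. Simulated libraries had the same dispersion per gene in both groups, and none was set apart as BRL replicate 1 was. Recovery and false calls in the real libraries may therefore differ.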

Other observations

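Ratios between related members, taken on the TPM scale, differed in how far they moved. Rbm20 over Rbm24 was 0.857, 0.750 and 0.751 in vehicle and 0.726, 0.761 and 0.850 in BRL replicates 1, 2 and 3, so both genes kept about the same proportion in the 2 groups. Mbnl1 over Mbnl2 was 0.389, 0.370 and 0.362 in vehicle and 0.522, 0.345 and 0.350 in BRL, with replicate 1 above the rest. Celf1 over Celf2 was 2.09 to 2.26 in vehicle and 2.71, 3.14 and 2.23 in BRL. Summed Muscleblind over summed Celf1 and Celf2 was 1.82 to 2.09 in vehicle and 1.74 to 2.03 in BRL. These ratios are descriptions with no test.

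The short core of the cyclic AMP response element, TGACG on either strand, occurred in the 250 bases upstream of 25 of the 45 members with a RefSeq promoter entry (55.6%), against 31.7% of tested genes with an entry. Counts per gene take any of its listed starts, and the members had 74 windows for 45 genes, against 11676 for 9122 tested genes. More windows per gene can raise such a count, and how far was not tested. The 45 also include members below the filter on low counts, such as Celf3 and Celf6. The members' windows had a median GC content of 62.2% and 19 CpG pairs, against 60.4% and 16 over tested genes. The part of base composition in the TGACG shares was not tested. The full site TGACGTCA, which includes that core, was found for 4 of the 45 members (8.89%), against 3.08% of tested genes with an entry. The limits on windows and base composition hold for these shares too. The 4 were Celf3 and Celf6, below the filter, and Clk4 and Tra2a, which are shown as the tested ones. Neither Clk4 nor Tra2a passed the test, as was so for 44 of the 46 tested members. Whether the sites bear on RNA levels was not tested. Windows are from RefSeq on GRCm38.p6, 5′ to 3′ on the gene's strand, with the site in capitals, at chr11:51263029-51263076 (plus strand) and chr6:49264053-49264099 (minus strand).
Clk4: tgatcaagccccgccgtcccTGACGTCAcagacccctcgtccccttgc
Tra2a: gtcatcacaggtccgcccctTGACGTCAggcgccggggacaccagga
A match of letters shows neither binding nor use of the site.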
